A study of Mus musculus with 22 samples.

Results

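The genes described here encode the enzymes of cholesterol synthesis, the enzymes of fatty acid synthesis and desaturation, and the proteins that control both pathways through the SREBP transcription factors. They were taken by name from a list of 33 genes, of which 32 were among the 10516 genes with values, and Mvd was not analysed here. NIH3T3 cells, a line of fibroblasts grown from mouse embryos, had been transduced with lentiviruses that express an shRNA from the pLKO.1puro vector and selected with puromycin. The Denr knockdown cells carried Denr shRNA1 (3 lysates) or Denr shRNA2 (3 lysates), against the mRNA of the reinitiation factor DENR, and the control cells carried a scramble shRNA (3 lysates) or a Gfp shRNA (2 lysates). All 11 dishes were treated with cycloheximide before lysis, and 2 libraries were made per lysate, one from total RNA (RNA-seq) and one from the stretches of mRNA that ribosomes shield against nuclease digestion (RPF-seq). The cells were thus transduced populations on dishes of their own, every group including the controls carried a virus and a resistance gene, and no parental cells were among the 22 libraries. The sources used here do not say on which days the dishes were grown or whether each came from a transduction of its own. The p-values thus measure the spread between these lysates. For knockdown against control, the lysates of the 2 shRNAs on each side were taken as one group, so differences between shRNAs are part of that spread.

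Cholesterol is made from acetyl-CoA through the mevalonate arm, which ends in farnesyl pyrophosphate, and through a later arm that joins farnesyl units to squalene, closes the rings to lanosterol and trims lanosterol to cholesterol. When sterols in the endoplasmic reticulum run low, SCAP carries the SREBP precursors to the Golgi, where they are cut and release a transcription factor that enters the nucleus, and INSIG1 and INSIG2 hold SCAP back when sterols are plentiful. SREBP-2, the product of Srebf2, is best known for the genes of cholesterol synthesis and SREBP-1, the product of Srebf1, for those of fatty acid synthesis, and both act on sterol regulatory elements that commonly lie near a CCAAT box bound by NF-Y.

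The promoters of the genes were examined for these letters because many of the genes shared a direction of change. The 250 bases before the transcript start in RefSeq (GRCm38.p6) were at hand for 25 of the 32 genes and for 8357 of all genes. The 25 genes had 33 promoters, and for 26 of these the first 30 transcribed bases were found in a GENCODE transcript. The element TCACNCCAC, searched on both strands, was found for 1.18% of the 8357 genes and for 1 of the 25, Hmgcs1. Its shorter core CACNCCAC, which every TCACNCCAC also contains, was found for 6.46% of the 8357 genes and for 3 of the 25, Acat2, Hmgcs1 and Insig1. The letters CCAAT were found on either strand for 41.9% of the 8357 genes and for 19 of the 25, and the E-box CACGTG for 10.3% and for 5 of the 25. The following 30-base windows show the sterol element, its core or a CCAAT box in capitals, 5′ to 3′ on the strand of the gene, so that a match on the opposite strand reads as its reverse complement. They were chosen from genes of the mevalonate arm, the later arm and the SREBP control group.
Hmgcs1, element, chr13:119690204-119690233, plus strand, capitals ending 129 bases before the start: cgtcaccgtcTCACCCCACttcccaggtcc
Acat2, core, chr17:12960760-12960789, minus strand, capitals ending 46 bases before the start: cgtgaggaggcGTGGCGTGgaggccatagc
Lss, CCAAT box, chr10:76531531-76531560, plus strand, capitals ending 58 bases before the start: ggtgatgctctgATTGGccgagctcgcatc
Nsdhl, CCAAT box, chrX:72918489-72918518, plus strand, capitals ending 16 bases before the start: aagactagcctcATTGGgcaaaatcatgct
Srebf2, CCAAT box, chr15:82147122-82147151, plus strand, capitals ending 131 bases before the start: cttcgcgcgccgATTGGctaatgcaagcct
Such a match is a description of the letters, and the files hold no measurement of a factor at these sites.

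The RNA-seq libraries held 8514078 to 20109684 reads on the CDS and 5′ UTRs of the 10516 genes, and the RPF-seq libraries 10927298 to 21649878, as recovered from the RPKM values. Denr, the targeted gene, lay between 15.5 and 44.0 CDS RPKM in the RNA-seq libraries of the knockdown lysates and between 165 and 190.1 in those of the controls, and the 3 values with Denr shRNA2 were all below those with Denr shRNA1. All 9 fibroblast markers had values, with a summed RNA-seq level of 7669 to 9584 RPKM in the knockdown lysates and 7339.8 to 8923 in the controls. Of the 5 epithelial markers looked for, only Cdh1 had values, between 2.74 and 4.05 RPKM in the 11 lysates. No value was at hand for the 7 adipocyte and 4 immune markers looked for. Pairs of replicates had squared correlations of log2 RPKM from 0.956 to 0.994 in RNA-seq and from 0.981 to 0.992 in RPF-seq. The lowest squared correlations in RNA-seq involved replicate 1 of Denr shRNA1, and the shallowest RNA-seq library was replicate 3 of the scramble shRNA, so counts are also given without these 2 lysates.

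In control cells the genes spanned from 4.37 ± 0.79 (Tm7sf2) to 408.5 ± 70.6 (Cyp51) CDS RPKM in RNA-seq (mean ± SD, n = 5), a scale on which reads are divided by the length of the CDS. The median of the 32 genes was 71.9 RPKM, and that of all genes 28.2. Cyp51, the lanosterol demethylase, Scd2, a desaturase, Insig1 and Sqle, the squalene epoxidase, had the 4 highest RNA-seq levels. Translation efficiency (TE), the log2 CDS RPKM in RPF-seq minus that in RNA-seq of a lysate, had a median of 0.46 over the 32 genes in control cells and of -0.08 over all genes. Dhcr7, the reductase of the last step to cholesterol, had the highest TE of the 32, at 1.27 ± 0.06, and Scap the lowest, at -2.83 ± 0.08.

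Scap, the escort protein of the SREBPs, stood apart in where its footprints lay. In the controls its CDS had 6.73 to 8.92 RPKM in RPF-seq, whereas its 5′ UTR had 43.1 to 59.9 RPKM, and no other of the 24 genes with 5′ UTR coverage had a relative 5′ UTR translation as high. In the knockdown lysates the values were 6.16 to 8.89 and 58.6 to 70.9 RPKM. Its annotated 5′ UTR of 247 bases holds 4 AUG uORFs, short reading frames upstream of the CDS, but the RPKM values imply a counted 5′ UTR of 309 bases, so the counted region was not the one searched. A transcript annotated on the opposite strand covers 20.5% of its CDS bases.

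To see whether the genes of these pathways differed in mRNA abundance after Denr knockdown, CDS RPKM in RNA-seq were compared between the 6 knockdown and 5 control lysates, on log2(RPKM + 0.1) with limma and an FDR of 0.1 over all 10516 genes. In bulk lysates such as these, fewer cells that express a gene and less RNA per cell cannot be told apart. Of the 32 genes, 9 were higher and 0 lower, whereas 2.68% of all genes tested were higher and 0.865% lower. The fold change was above 0 for 30 of the 32, with a median of 0.31 on the log2 scale, against 0.03 over all genes. In 7 of the 32 all knockdown lysates lay above all controls, as did 2.63% of all genes. The genes called were Fdps in the mevalonate arm, Fdft1, Lss, Tm7sf2 and Nsdhl in the later arm, Srebf2 in the control group, and the desaturases Scd1, Fads1 and Fads2.

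Fdps makes farnesyl pyrophosphate, the branch point to sterols and to prenyl groups. Its RNA-seq level was 167 to 240.4 RPKM (median 174) in the knockdown lysates, 101, 110.2 and 108 with the scramble shRNA and 155 and 138 with the Gfp shRNA, and the groups did not overlap (log2 fold change 0.60, SE 0.12, adjusted p = 0.0274). Fdft1, the squalene synthase, lay at 93.1 to 111 RPKM (median 100.4) in the knockdown lysates, at 61.8, 60.1 and 69.7 with scramble and at 91.0 and 86.7 with Gfp (0.47, SE 0.11, adjusted p = 0.0447). Lss, which closes the sterol rings, lay at 43.4 to 50.1 (median 47.7), at 30.3, 33.1 and 30.1 with scramble and at 39.7 and 40.7 with Gfp (0.45, SE 0.09, adjusted p = 0.0245). For each of these genes, both Gfp lysates lay above all scramble lysates and below all knockdown lysates. Tm7sf2, a sterol reductase of low abundance in these cells, had 5.59 to 8.39 RPKM (median 6.81) against 3.41, 4.77 and 4.25 with scramble and 5.47 and 3.93 with Gfp (0.66, SE 0.13, adjusted p = 0.0246). Nsdhl, which helps to remove the methyl groups of lanosterol, had 44.2 to 56.9 (median 47.3) against 31.5, 30.5 and 37.8 with scramble and 44.8 and 41.2 with Gfp (0.41, SE 0.11, adjusted p = 0.0821). Its groups overlapped, as 1 Gfp lysate reached into the knockdown range.

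Srebf2, which encodes SREBP-2, had 118 to 146 RPKM (median 125) in RNA-seq of the knockdown lysates, 93.0, 91.5 and 83.1 with scramble and 106 and 101 with Gfp, and the groups did not overlap (0.42, SE 0.08, adjusted p = 0.0163). The RNA-seq level of Srebf1, which encodes SREBP-1, was 19.8 to 24.6 RPKM in the knockdown lysates and 18.0 to 22.2 in the controls (0.09, SE 0.08, adjusted p = 0.639). Scd1, the stearoyl-CoA desaturase, had 91.6 to 101 RPKM (median 97.4) against 78.0, 74.9 and 73.7 with scramble and 85.1 and 76.5 with Gfp, again without overlap (0.32, SE 0.06, adjusted p = 0.0205). The desaturases of polyunsaturated fatty acids, Fads1 and Fads2, are neighbours on chromosome 19. Fads1 had 132 to 165 RPKM (median 142) against 97.9, 97.6 and 136 with scramble and 125 and 114 with Gfp (0.36, SE 0.10, adjusted p = 0.0824). Fads2 had 154 to 197 (median 159) against 108, 106 and 131 with scramble and 140.2 and 130.4 with Gfp (0.43, SE 0.09, adjusted p = 0.0322). Replicate 3 of scramble lay inside the knockdown range for Fads1, so that its groups overlapped, whereas those of Fads2 did not. Of the genes not called, Idi1 and Scd2 were the only 2 below 0 (-0.11 and -0.12), and Hmgcs1 (0.36, SE 0.13, adjusted p = 0.172), Insig1 (0.32, SE 0.11, adjusted p = 0.175) and Fasn (0.02, SE 0.08, adjusted p = 0.954) did not pass.

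The calls of Fdps, Lss, Tm7sf2, Srebf2 and Scd1 remained when any single lysate was left out. Those of Fdft1 and Fads2 were lost without scramble replicate 1 or 2, that of Nsdhl in 8 of the 11 leave-one-out fits and that of Fads1 in 7. The count of called genes was 5 without scramble replicate 1, 5 without scramble replicate 2 and 18 without Gfp replicate 1, and it was 9 without the 2 lysates that stood apart. With a replicate block it was 17, all higher, where 9.54% of all genes were called.

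**Figure D1:**
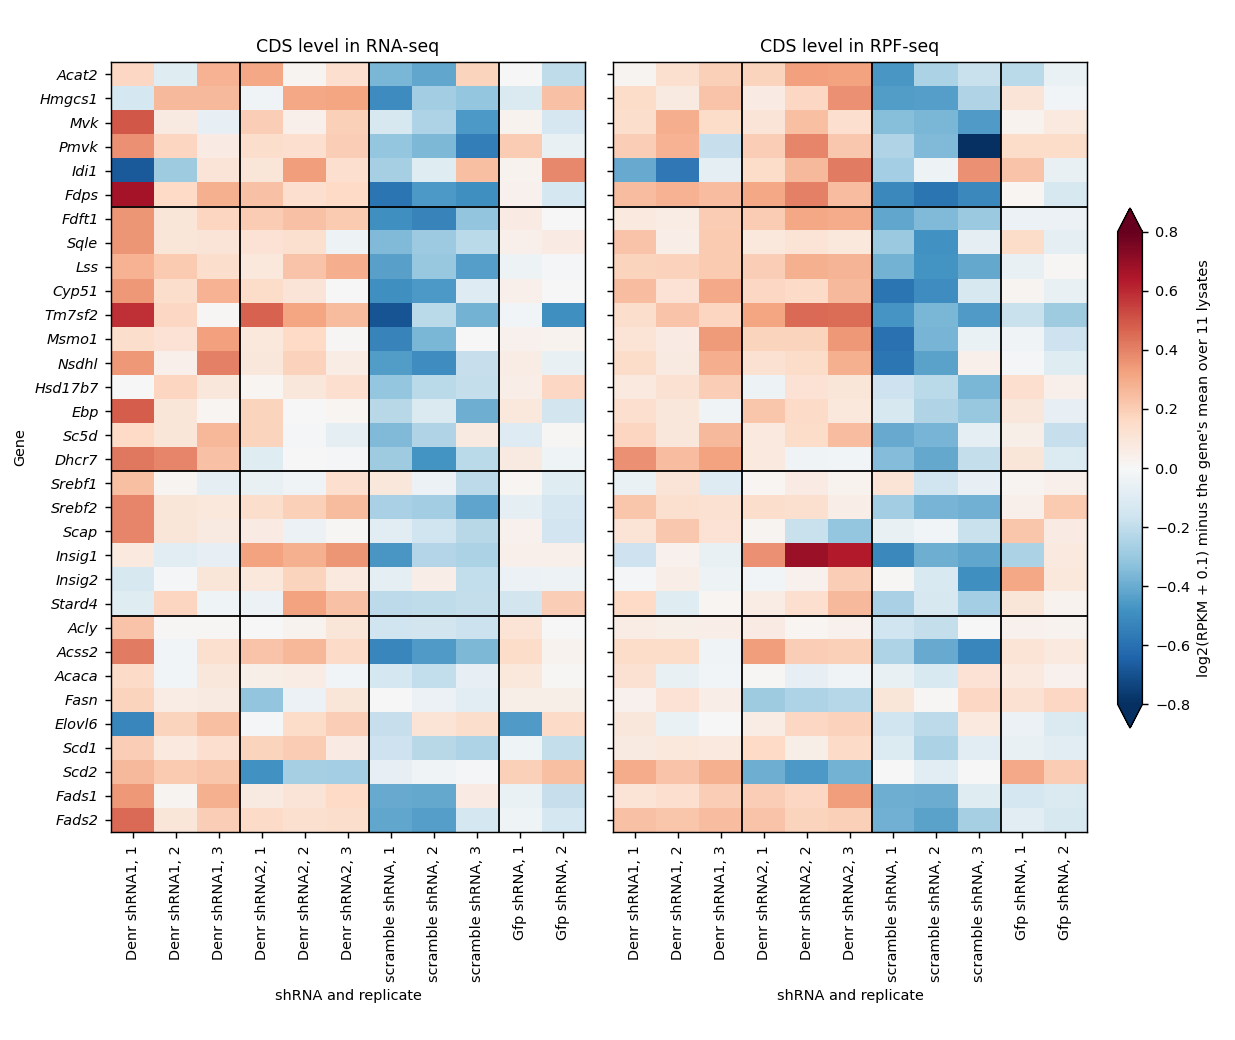
CDS level of the 32 genes (rows, with lines between the mevalonate arm, the later arm, the SREBP control group and the fatty acid group) in the 11 lysates (columns, with lines between the 4 shRNAs), in RNA-seq on the left and RPF-seq on the right; colour gives log2(RPKM + 0.1) minus the mean of the gene over 11 lysates. The scramble columns are the lowest for most rows, the Gfp columns lie near the mean, and Insig1, Idi1 and Scd2 differ between the 2 Denr shRNAs.

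To ask whether more ribosomes were on these mRNAs, footprints on the CDS were compared in the same way. Of the 32 genes, 19 were higher after knockdown and 0 lower, whereas 5.47% of all genes tested were higher and 4.55% lower. The median log2 fold change was 0.36 over the 32 genes and 0.01 over all genes. By role, the count was 4 of 6 in the mevalonate arm, 10 of 11 in the later arm, 1 of 6 in the SREBP control group and 4 of 9 in the fatty acid group. In 13 of the 32 genes all knockdown lysates lay above all controls, as did 2.48% of all genes.

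In the mevalonate arm, Fdps footprints lay at 170.3 to 189.7 RPKM (median 172) in the knockdown lysates, at 100.3, 95.9 and 101 with scramble and at 145 and 132 with Gfp, a 1.55-fold difference (log2 0.63, SE 0.10, adjusted p = 0.00521). A second gene model on the same strand covers 85.9% of its CDS bases in the annotation, and how reads were divided between them is not given in the sources used here. Acat2, the cytosolic thiolase of the first step, lay at 58.9 to 72.6 (median 65.8), at 41.9, 48.5 and 51.1 with scramble and at 49.8 and 55.8 with Gfp (0.43, SE 0.08, adjusted p = 0.011), and Mvk, the mevalonate kinase, at 47.7 to 54.5 (median 49.1), at 35.1, 34.4 and 32.4 with scramble and at 45.3 and 46.9 with Gfp (0.39, SE 0.09, adjusted p = 0.0335). Neither had overlapping groups. Hmgcs1, the HMG-CoA synthase whose promoter holds the sterol element printed above, lay at 264 to 326 (median 281), at 185, 186 and 214 with scramble and at 272 and 249 with Gfp (0.38, SE 0.10, adjusted p = 0.0441). An antisense transcript covers 35.1% of its CDS bases. Pmvk, the next kinase after Mvk, was at 0.40 (SE 0.15, adjusted p = 0.135), and Idi1, the isomerase, at -0.08 (SE 0.17, adjusted p = 0.796).

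In the later arm, the footprints of Fdft1 lay at 127 to 152 RPKM (median 141) in the knockdown lysates, at 91.8, 95.6 and 99.7 with scramble and at 118 and 118 with Gfp (0.42, SE 0.08, adjusted p = 0.0125). Lss lay at 53.8 to 58.2 (median 54.9), at 36.6, 34.2 and 35.8 with scramble and at 45.6 and 48.0 with Gfp (0.49, SE 0.09, adjusted p = 0.0107). Cyp51 lay at 669 to 764 (median 715), at 412, 438 and 565 with scramble and at 629 and 592 with Gfp (0.46, SE 0.10, adjusted p = 0.0245). In these 3 genes the order of the groups was the one seen for Fdft1 and Lss in RNA-seq, with scramble lowest and Gfp between. Tm7sf2, with 5.43 to 6.80 (median 5.97) against 3.53, 3.80 and 3.58 with scramble and 4.34 and 4.02 with Gfp, had the largest fold change of the 32 genes, 1.56-fold (0.64, SE 0.09, adjusted p = 0.00275). Msmo1, which oxidises the methyl groups that Nsdhl then helps to remove, lay at 262 to 319 (median 283), at 166, 194 and 241 with scramble and at 246 and 224 with Gfp (0.45, SE 0.10, adjusted p = 0.0237). Nsdhl itself lay at 84.4 to 98.2 (median 88.9), at 53.6, 59.6 and 82.4 with scramble and at 79.4 and 75.0 with Gfp (0.39, SE 0.10, adjusted p = 0.0449). In both, scramble replicate 3 was the highest scramble lysate and the groups did not overlap.

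The remaining genes of the later arm had smaller differences. Sc5d, the lathosterol oxidase, lay at 126 to 143 RPKM (median 133), at 90.2, 92.4 and 114 with scramble and at 124 and 105 with Gfp, without overlap (0.36, SE 0.08, adjusted p = 0.0237). Sqle lay at 189 to 214 (median 195), at 148, 130.5 and 174 with scramble and at 202 and 174 with Gfp (0.28, SE 0.09, adjusted p = 0.0917). Ebp, the sterol isomerase, lay at 76.3 to 91.0 (median 84.2), at 71.3, 65.9 and 63.1 with scramble and at 82.8 and 74.3 with Gfp (0.24, SE 0.07, adjusted p = 0.0706). In Sqle and Ebp a Gfp lysate lay inside the knockdown range. Dhcr7 lay at 54.1, 49.9 and 52.6 with Denr shRNA1, at 44.3, 41.2 and 41.3 with Denr shRNA2, at 33.0, 31.6 and 36.7 with scramble and at 44.9 and 38.9 with Gfp (0.35, SE 0.10, adjusted p = 0.0603), so its Denr shRNA2 values were near those with Gfp. Hsd17b7, a ketoreductase and the only gene of this arm not called, was at 0.21 (SE 0.08, adjusted p = 0.148).

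In the SREBP control group, only Insig1, itself a well-known SREBP target, passed. Its footprints lay at 177, 203 and 191 RPKM with Denr shRNA1, at 256, 320.4 and 308 with Denr shRNA2, at 139, 152 and 149 with scramble and at 166 and 209 with Gfp (0.55, SE 0.16, adjusted p = 0.0614). The footprints of Srebf2 missed the threshold narrowly, at 114 to 128 RPKM against 90.4, 84.9 and 84.3 with scramble and 113 and 127 with Gfp (0.29, SE 0.10, adjusted p = 0.101). Both Gfp values of Srebf2 were thus inside or next to the knockdown range. Srebf1 (0.02, SE 0.06), Scap (-0.01, SE 0.10), Insig2 (0.08, SE 0.11) and Stard4, a sterol carrier (0.20, SE 0.08), did not pass, with adjusted p from 0.166 to 0.965.

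In the fatty acid group, the desaturases Fads2, Fads1 and Scd1 had the lowest adjusted p. Fads2 footprints lay at 229.7 to 241 RPKM (median 237), at 156, 151 and 169 with scramble and at 192 and 186 with Gfp, 1.39-fold (0.47, SE 0.06, adjusted p = 0.00247). Fads1 lay at 245 to 286 (median 258), at 174, 173 and 213 with scramble and at 206 and 210.4 with Gfp (0.42, SE 0.07, adjusted p = 0.00743). The knockdown lysates lay above all controls in both. Scd1 lay at 138 to 149.7 (median 142), at 124, 112 and 125 with scramble and at 129 and 126 with Gfp, a small difference of 1.16-fold without overlap (0.22, SE 0.05, adjusted p = 0.028). Acss2, which activates acetate in the cytosol, lay at 10.4 to 13.4 (median 11.9), at 8.94, 8.01 and 7.39 with scramble and at 11.5 and 11.2 with Gfp (0.36, SE 0.11, adjusted p = 0.0852). Its Gfp values were inside the knockdown range. The enzymes that make palmitate and its precursors were not called: Acly, the ATP citrate lyase (0.10, SE 0.05), Acaca, the acetyl-CoA carboxylase (-0.02, SE 0.06), and Fasn, the fatty acid synthase (-0.21, SE 0.08, adjusted p = 0.147). The elongase Elovl6 (0.17, SE 0.06) and Scd2 (-0.15, SE 0.15) did not pass either. Scd1 and Scd2 are close paralogues, as are Acat2 and its neighbour Acat3 in the mouse, and how reads that match both copies were assigned is not given in the sources used here.

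Of the 19 calls in footprints, 12 remained when any single lysate was left out, namely those of Acat2, Mvk, Fdps, Fdft1, Lss, Cyp51, Tm7sf2, Msmo1, Sc5d, Scd1, Fads1 and Fads2. Hmgcs1 was lost without scramble replicate 1 or 2, Nsdhl without scramble replicate 2, and Sqle, Ebp, Dhcr7, Insig1 and Acss2 in 6 to 9 of the 11 fits. The count was 12 without scramble replicate 2, and 14 without the 2 lysates that stood apart. With a replicate block it was 21, all higher, where 18.4% of all genes were called.

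**Figure D2:**
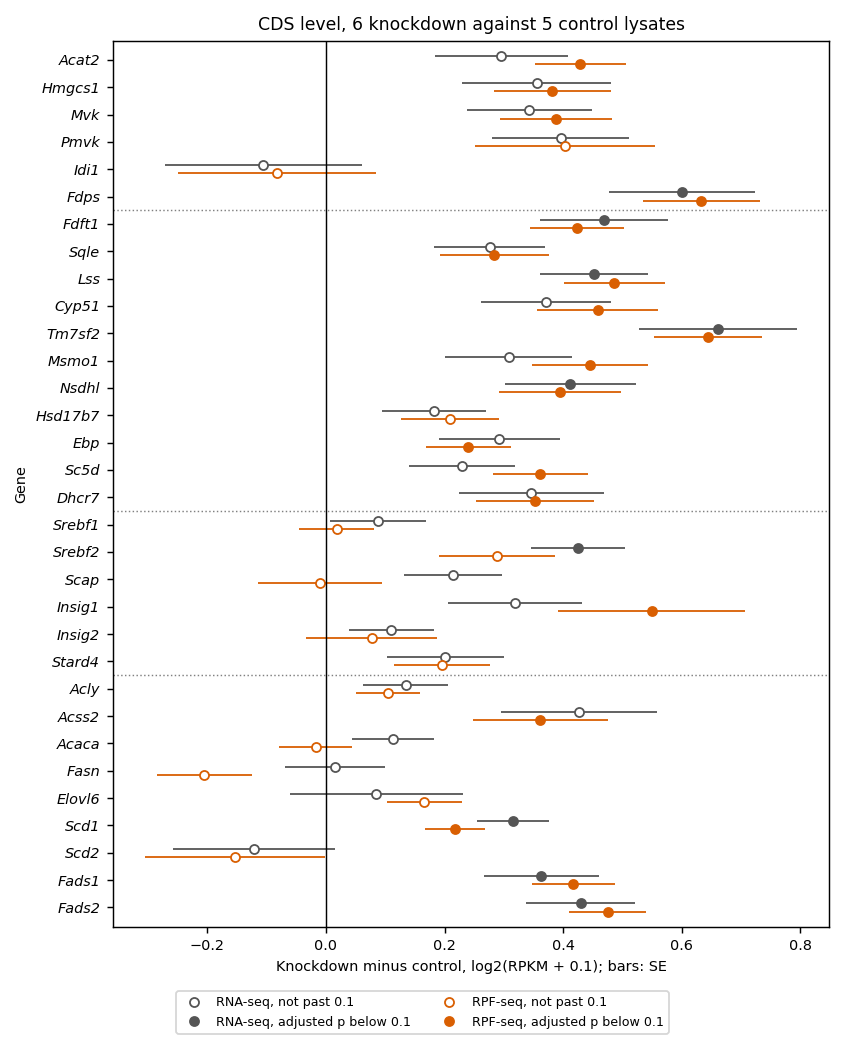
Knockdown minus control on log2(RPKM + 0.1) for the CDS of the 32 genes, from 6 knockdown and 5 control lysates, in RNA-seq (grey) and RPF-seq (orange); bars are SE, filled points passed an adjusted p of 0.1, and dotted lines divide the 4 groups of genes. Both readouts lie to the right of 0 for nearly all sterol genes and near or left of 0 for Idi1, Fasn and Scd2.

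The control shRNAs differed from each other for the same pathway, as the values above show, and this was tested as Gfp minus scramble in a fit of the 4 shRNA groups. In footprints, 14 of the 32 genes were higher with Gfp and 0 lower, whereas 5.38% of all genes tested were higher and 3.10% lower. Those called were Hmgcs1, Mvk, Pmvk and Fdps of the mevalonate arm, Fdft1, Lss, Cyp51, Hsd17b7 and Dhcr7 of the later arm, Srebf2 and Stard4 of the control group, and Acss2, Scd2 and Fads2. The differences called ranged from 0.25 (Fads2, SE 0.07, adjusted p = 0.0533) to 0.61 (Pmvk, SE 0.16, adjusted p = 0.0542) on the log2 scale, with Fdps at 0.48 (SE 0.07, adjusted p = 0.0034), Srebf2 at 0.47 (SE 0.07, adjusted p = 0.00519) and Lss at 0.40 (SE 0.07, adjusted p = 0.00769). In RNA-seq only Fdft1 passed (0.48, SE 0.10, adjusted p = 0.0921), where 0.533% of all genes were higher, although 31 of the 32 differences were above 0, with a median of 0.23. Of the genes whose footprints were not given above, Pmvk lay at 44.9, 41.5 and 30.5 RPKM with scramble and at 58.7 and 58.9 with Gfp, Hsd17b7 at 56.0, 54.1 and 48.7 and at 68.9 and 64.6, and Stard4 at 112, 123 and 111 and at 143 and 137. None of these overlapped between the control shRNAs, and 20.9% of all genes were higher with Gfp without overlap. Scd1 was at 0.08 (SE 0.07, adjusted p = 0.51) in footprints. TE passed in 0 of the 32 genes and in 0 of all genes with limma, where 1 of the 32 and 2.22% of all genes were at an unadjusted p below 0.05. With 3 and 2 lysates these counts moved with single libraries: the footprint count was 8 without scramble replicate 2, 5 without Gfp replicate 1 and 4 without Gfp replicate 2, and the RNA-seq count was 8 without Denr shRNA1 replicate 1 and 0 without 9 of the other lysates.

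Since the 2 comparisons share the control lysates, the knockdown lysates were also set against each control shRNA alone. Against scramble, 24 of the 32 genes were higher in footprints and 20 in RNA-seq, whereas 14.0% and 6.73% of all genes were. Against Gfp, 3 were higher in footprints, namely Fdps (0.34, SE 0.07), Fads1 (0.32, SE 0.07) and Fads2 (0.32, SE 0.06), and 0 in RNA-seq, whereas 0.428% and 0.124% of all genes were. The comparison with Gfp rests on 2 control lysates. The median difference over the 32 genes was 0.48 against scramble and 0.13 against Gfp in footprints, and 0.41 and 0.14 in RNA-seq, with all-gene medians of at most 0.03. Single genes differed in how far the choice of control moved them. Fdps footprints were 0.83 above scramble and 0.34 above Gfp, Tm7sf2 0.72 and 0.53, and Scd1 0.25 and 0.17. Srebf2 was 0.48 above scramble and 0.01 above Gfp, Pmvk 0.65 and 0.04, Hsd17b7 0.34 and 0.01, and Acss2 0.55 and 0.07. What made the controls differ was not tested.

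**Figure D3:**
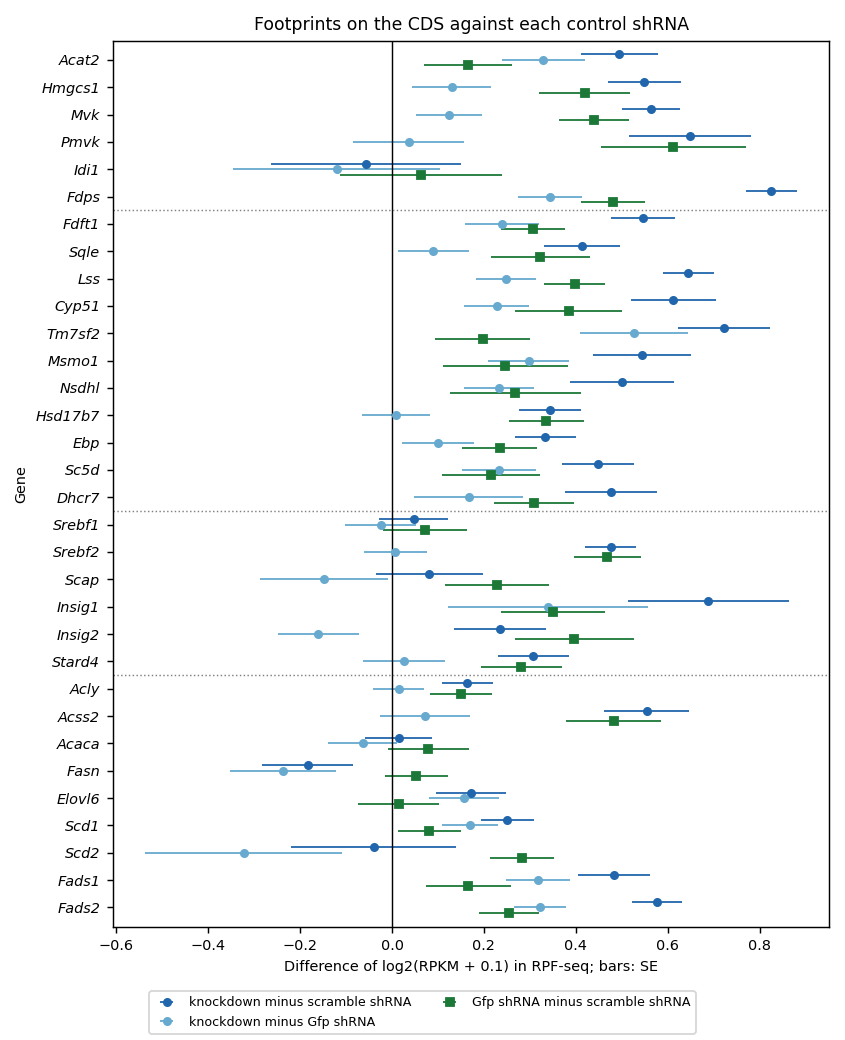
Differences in CDS footprints on log2(RPKM + 0.1) for each of the 32 genes, as knockdown minus scramble (dark blue), knockdown minus Gfp (light blue) and Gfp minus scramble (green squares); bars are SE, and dotted lines divide the 4 groups of genes. The dark blue points lie to the right of the light blue ones and the green squares to the right of 0 in all 32 rows, with the dark blue point of Fdps farthest right at 0.83.

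Whether ribosome load changed beyond the mRNA was asked with TE. Of the 32 genes, 0 passed in either direction, with limma at an FDR of 0.1, whereas 0.475% of all genes tested were lower and 0 higher. At an unadjusted p below 0.05 there were 2, both lower, and 6.66% of all genes. The interaction fit over the 22 libraries likewise called 0 of the 32, and 0.371% of all genes. The median TE difference was 0.01 over the 32 genes and -0.01 over all genes, and it was between -0.05 and 0.03 in each of the 4 groups. The 2 with an unadjusted p below 0.05 were Fasn and Scap. Fasn was the only one of the 32 whose TE was lower in all knockdown lysates than in all controls, as for 1.32% of all genes. Fasn TE lay at -0.00 to 0.38 in the knockdown lysates and at 0.38 to 0.57 in the controls (-0.22, SE 0.08, adjusted p = 0.581), and Scap TE at -3.27 to -2.83 and -2.92 to -2.73 (-0.22, SE 0.10, adjusted p = 0.742). Insig1 had the largest increase that was not called (0.23, SE 0.11, adjusted p = 0.782), and Hmgcs1 (0.03, SE 0.11), Srebf1 (-0.07, SE 0.09), Srebf2 (-0.14, SE 0.09) and Scd1 (-0.10, SE 0.07) had adjusted p from 0.907 to 0.999. A p that missed the threshold does not show equal TE.

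Relative 5′ UTR translation is the log2 ratio of footprints on the 5′ UTR to those on the CDS, and it could be examined for 24 of the 32 genes, those whose 5′ UTR held 20 or more footprints in 9 or more of the 11 lysates. It was higher in 2 of the 24 genes and lower in 0, whereas 18.1% of 5175 genes tested were higher and 0.0386% lower. The median difference was 0.28 over the 24 genes and 0.33 over all 5175, and 22 of the 24 were above 0. The 2 genes were Acly and Scd1. For Acly, the log2 ratio lay at -3.57 to -2.76 (median -3.03) in the knockdown lysates, at -4.04, -3.56 and -3.74 with scramble and at -3.96 and -3.33 with Gfp (0.62, SE 0.20, adjusted p = 0.0738), on 23 to 76 footprints per library. For Scd1, it lay at -0.27 to 0.38 (median 0.05), at -0.57, -0.12 and -0.81 with scramble and at -0.60 and 0.01 with Gfp (0.48, SE 0.18, adjusted p = 0.0984), on 283 to 761 footprints. The groups overlapped in both genes, and neither call remained in all leave-one-out fits. The count of called genes was 8 without Gfp replicate 2, 1 without scramble replicate 3, and 0 without Denr shRNA1 replicate 1, 2 or 3, Denr shRNA2 replicate 2, scramble replicate 1 or Gfp replicate 1. It was also 0 without the 2 lysates that stood apart. With a replicate block it was 13 of the 24, all higher, where 46.7% of the 5175 genes were called. Cyp51 was the only gene of the 24 whose lysates separated completely (0.43, SE 0.17, adjusted p = 0.103), as did 4.83% of all genes. The same ratio in RNA-seq passed in 0 of the 24 genes and 0 of all genes with limma (0 and 4.27% at an unadjusted p below 0.05), with a median difference of 0.04 over the 24.

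**Figure D4:**
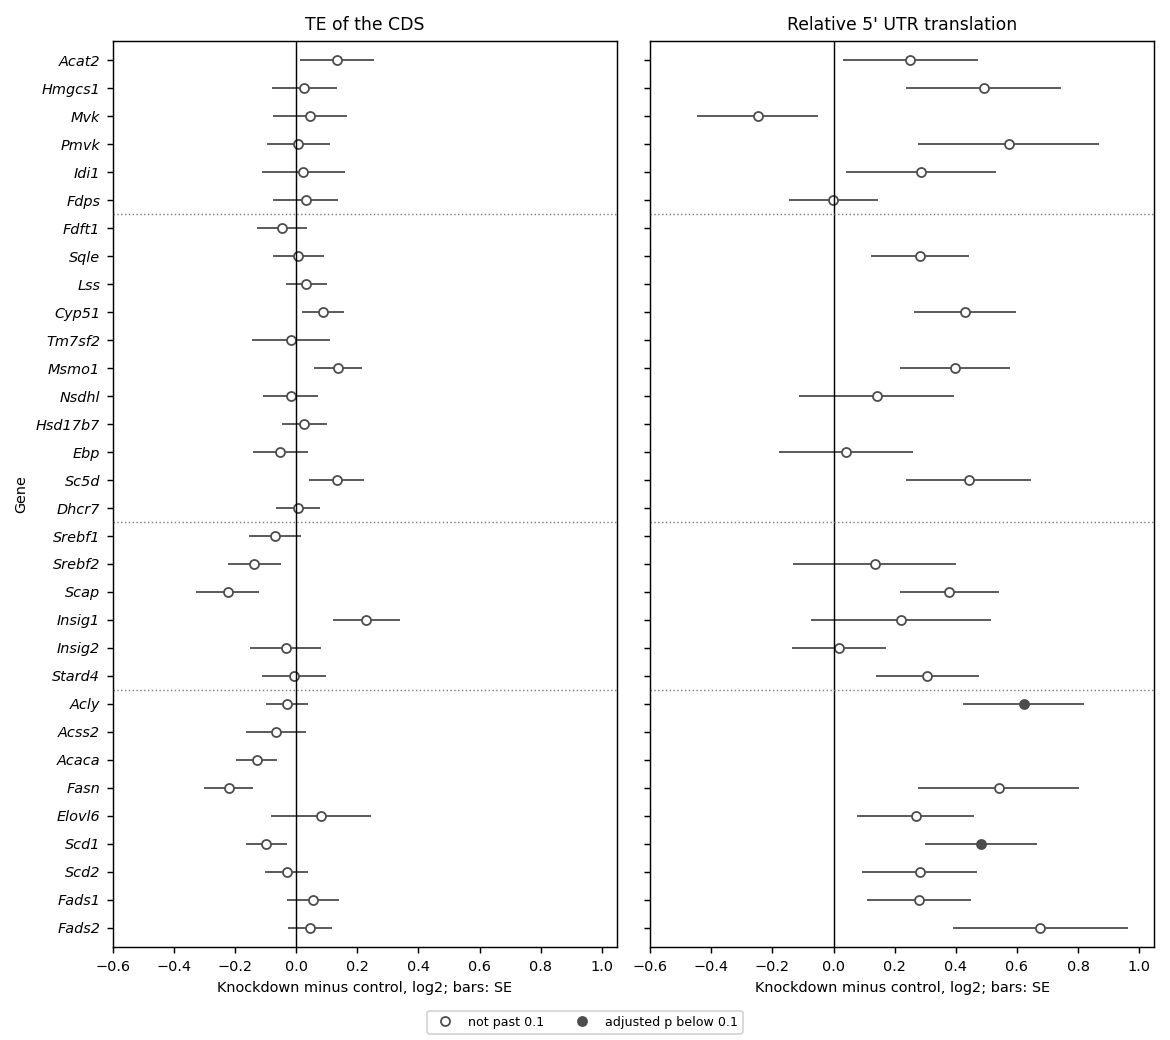
Knockdown minus control for the TE of the CDS (left, 32 genes) and for relative 5′ UTR translation (right, the 24 genes with 5′ UTR coverage), on the log2 scale with SE; filled points passed an adjusted p of 0.1. TE points scatter about 0 with none filled, while the 5′ UTR points lie right of 0 except for Mvk and Fdps, with Acly and Scd1 filled.

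AUG uORFs were counted in the annotated transcript with the longest CDS, for genes with a 5′ UTR there. They were present in 20 of 31 of the genes (64.5%) and in 49.9% of all genes. Among genes with 5′ UTR coverage, 17 of 24 had one (70.8%), as did 63.9% of all covered genes. The median difference in relative 5′ UTR translation was 0.28 in the 17 with a uORF and 0.43 in the 7 without, and 0.28 and 0.41 in all covered genes with and without. The 5′ UTR searched for uORFs had the length of the one whose reads were counted in 11 of the 24 genes and another length in 13, so for the latter the uORFs may lie in another 5′ UTR than the one measured. In the 11 genes the medians were 0.27 in the 7 with a uORF and 0.37 in the 4 without. Ebp, with 9 uORFs, was at 0.04, and Scd1, with 0, at 0.48. Other genes did not follow this order, such as Acly, with 1 uORF, at 0.62 and Fads1, with 0, at 0.28.

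The 2 Denr shRNAs were compared to see which of the genes differed between them. In footprints, 2 genes were higher and 3 lower with Denr shRNA2 than with Denr shRNA1, whereas 5.68% of all genes were higher and 4.01% lower. The share of the 32 genes was thus of the order of the background. Insig1 was higher with Denr shRNA2, at 256, 320.4 and 308 RPKM against 177, 203 and 191 (0.63, SE 0.10, adjusted p = 0.00318), and Idi1 too, at 198, 214 and 238 against 135, 120.2 and 169.6 (0.62, SE 0.16, adjusted p = 0.0372). Scd2 was lower, at 488, 465 and 491 against 785, 748 and 778 (-0.68, SE 0.06, adjusted p = 8.41e-05). The scramble values of 639, 599.7 and 639.8 lay between the 2 Denr shRNAs, and the Gfp values of 787 and 736 lay near those with Denr shRNA1. Fasn was lower with Denr shRNA2, at 44.3, 45.5 and 46.1 against 55.4, 58.7 and 56.2 (-0.32, SE 0.06, adjusted p = 0.00796), and its controls, at 54.5 to 60.8, were near the Denr shRNA1 values. Dhcr7 was also lower (-0.30, SE 0.08, adjusted p = 0.0391). With a replicate block, 8 genes were called in footprints, 4 higher and 4 lower, and 17.2% of all genes, and the further 3 were Acat2 and Fdft1, which were higher, and Scap, which was lower. None of the first 5 genes had overlapping values between the Denr shRNAs, and 13.7% of all genes were higher and 13.8% lower without overlap.

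In RNA-seq, Insig1 was higher with Denr shRNA2, at 304, 296 and 309.9 RPKM against 256, 228 and 232 (0.35, SE 0.09, adjusted p = 0.097), and Scd2 lower, at 224, 261 and 260.4 against 376, 362 and 366 (-0.57, SE 0.08, adjusted p = 0.00785), whereas 1.13% and 0.932% of all genes were higher and lower. The Insig1 call in RNA-seq was lost in 8 of the 11 leave-one-out fits, and the count was 1 in those. In footprints the calls of Insig1, Fasn and Scd2 remained in all 11 fits, and those of Idi1 and Dhcr7 were each lost in 4. Idi1 was lost without Denr shRNA1 replicate 1 or 2 or Denr shRNA2 replicate 2 or 3, Dhcr7 without Denr shRNA1 replicate 1 or 3 or Denr shRNA2 replicate 2 or 3, and the count was 3 without Denr shRNA1 replicate 1 or Denr shRNA2 replicate 2 or 3. TE passed in 0 of the 32 genes and in 0 of all genes with limma (0 of the 32 and 3.73% of all at an unadjusted p below 0.05). Denr itself was lower with Denr shRNA2 than with Denr shRNA1 in footprints (-1.50, SE 0.16, adjusted p = 0.00021), and its part in the differences of these 5 genes was not tested.

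**Figure D5:**
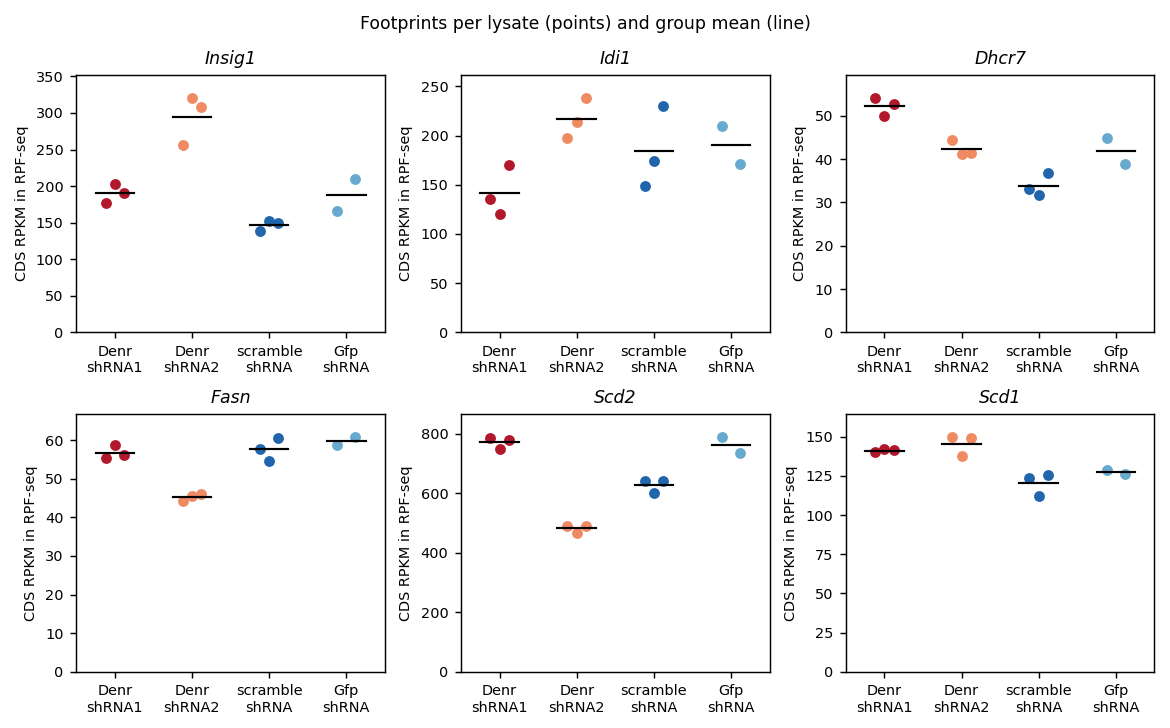
CDS footprints (RPKM, axis from 0) of 6 genes in each of the 11 lysates, as points by shRNA with the group mean as a line. Insig1 and Idi1 are higher and Dhcr7, Fasn and Scd2 lower with Denr shRNA2 than with Denr shRNA1, whereas the Scd1 points of both overlap and lie above those of both controls.

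Each Denr shRNA was also set against the 5 control lysates alone. In footprints 11 of the 32 genes were called with Denr shRNA1 alone, all higher, and 14 with Denr shRNA2 alone, 12 of them higher, whereas 7.77% and 7.36% of all genes were called in either direction. In RNA-seq 0 were called with Denr shRNA1 alone and 8 with Denr shRNA2 alone, 7 of them higher, whereas 1.51% and 4.51% of all genes were called. The median differences of the 32 genes were alike in size, 0.33 and 0.28 in RNA-seq and 0.32 and 0.32 in footprints.

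The neighbouring pathways were examined through 44 further genes of 4 lists, and 5 more genes of these lists were not analysed here. In RNA-seq 1 of the 44 was higher and 0 lower after knockdown, whereas 2.68% of all genes were higher and 0.865% lower. In footprints 4 were higher and 3 lower, whereas 5.47% of all genes were higher and 4.55% lower. Their median log2 difference was 0.05 in each readout. In the list on fatty acid supply, activation and glycerolipids, Slc25a1, the carrier that exports citrate from mitochondria, was higher in RNA-seq (0.58, SE 0.12, adjusted p = 0.0274) and in footprints (0.62, SE 0.09, adjusted p = 0.00426). In footprints Dgat1, which makes triglycerides (0.38, SE 0.11, adjusted p = 0.0649), and Acsl3, an acyl-CoA synthetase (0.26, SE 0.08, adjusted p = 0.0851), were higher, and the acyl-CoA synthetases Acsl1 (-0.41, SE 0.07, adjusted p = 0.0112) and Acsl5 (-0.35, SE 0.08, adjusted p = 0.0258) were lower. In the list on SREBP cleavage and degradation, 1 of 9 genes passed, Tmem97 (0.18, SE 0.06, adjusted p = 0.0999). In the list on prenyl branches, 1 of 9 passed, Nus1, a subunit of the enzyme that makes dolichol precursors, which was lower (-0.24, SE 0.06, adjusted p = 0.0521). Of the 8 genes on LXR, efflux and sterol transport, 0 passed in RNA-seq and 0 in footprints. In relative 5′ UTR translation 7 of 29 covered genes were higher, namely Tmem97, Nr1h2, Npc2, Osbp, Slc25a1, Acsl1 and Acsl5, with differences from 0.42 to 0.88 and adjusted p from 0.0491 to 0.0998, whereas 18.1% of all covered genes were higher. TE passed in 0 of the 44 with limma, and 6 were at an unadjusted p below 0.05, all of them lower. Over all genes, 6.66% were at such a p, in either direction.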

How the data were processed

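RNA-seq and RPF-seq libraries of 11 lysates were analysed. The authors deposited upper-quartile normalised RPKM values for CDS and 5′ UTRs, scaled with edgeR separately for each assay. The submitters' processing notes name CASAVA 1.82, cutadapt, Bowtie2 2.2.1, TopHat2 2.0.11, Cufflinks 2.2.1 and GRCm38. Strand use and the treatment of reads matching several places are not given in the sources used here. Because 1 read is worth a fixed RPKM for a given length, whole reads were recovered for all 231352 CDS values and 220616 5′ UTR values, within 0.002 reads, and gave the depths. Depth sets counting error only and leaves the spread between lysates.

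Groups followed the labels. CDS values, TE and relative 5′ UTR translation were compared on log2(RPKM + 0.1) with limma 3.58.1 (lmFit, eBayes with trend) in R 4.3.3. Because of the added 0.1 RPKM, fold changes of low genes are understated. The Benjamini-Hochberg adjustment ran over all genes tested at an FDR of 0.1. Tables were handled with Python 3.11.15, pandas 2.3.3 and scipy 1.17.1, and the fits were tested on simulated data. The simulated libraries were independent and shared a dispersion, without outlying lysates or a difference between the control shRNAs. uORFs were read from GENCODE vM21 and promoters from RefSeq. All listed genes were accounted for. Those that passed were given with values per lysate or with a range over lysates. The 6 genes Srebf1, Srebf2, Insig1, Hmgcs1, Fasn and Scd1 were given whether or not they passed, and neighbouring pathway genes were named where they passed. Naming Cyp51, Idi1, Scap, Ebp and Fads1 for 5′ UTR or TE values, and the promoter windows, was decided after their values were seen. The genes and lists were chosen with earlier results of these data known. Same-numbered footprint libraries of the 2 Denr shRNAs deviated together (correlations of 0.19 to 0.32 in the 3 pairs), so a replicate block is given beside that comparison. Counts with a replicate block are also given beside those for knockdown against control. Alternatives were the pseudocount, filters, centring, each shRNA or control alone, leaving out lysates, a replicate block, voom on recovered reads and an interaction fit. The control with Gfp alone and the removal of 2 lysates were added after seeing the data.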

Additional observations from a re-analysis of the deposited data

Results flagged for a closer look

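In 3 of 86 groups of lysates examined, 1 lysate lay far from the rest, and chance flags about 1 in 20 groups. In RNA-seq of Denr shRNA1 replicate 1, log2(RPKM + 0.1) was 7.91 for Fdps, against 7.38 to 7.53 in the other 5 knockdown lysates, and 7.62 for Fads2, against 7.26 to 7.36. This is the library with the lowest squared correlations to its replicates, and both genes were also called without it. In RPF-seq, scramble replicate 2 had 6.81 for Scd1, against 6.95 to 7.01 in the other 4 control lysates, and the call of Scd1 remained without it.

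The CDS levels of some genes differed between the Denr shRNAs by a test of the difference itself. It is given here as Denr shRNA2 minus Denr shRNA1 on the log2 scale, and the part of Denr knockdown in it was not tested. In RNA-seq the difference was 0.35 for Insig1 and -0.57 for Scd2. In footprints it was 0.63 for Insig1, 0.62 for Idi1, -0.30 for Dhcr7, -0.32 for Fasn and -0.68 for Scd2. In footprints the 3 values of one Denr shRNA lay apart from the 3 of the other for each of these genes, which the same comparison had picked. Of all genes, 13.7% were higher and 13.8% lower without overlap in footprints.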

How the results depend on the processing

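Over the settings tried, 160 of 184 counts and medians stayed within 1.5 times or the spread of the main value, and 206 of 242 did so when single lysates were left out. The number of called genes after knockdown ranged from 5 to 18 in RNA-seq, 12 to 23 in footprints and 0 to 8 in relative 5′ UTR translation when 1 lysate was left out. For Denr shRNA2 against Denr shRNA1 it ranged from 1 to 3 in RNA-seq and from 3 to 6 in footprints, and for Gfp against scramble from 0 to 8 and from 4 to 18. Over all pairs of lysates with the same replicate number, deviations from the shRNA means had a mean correlation of 0.33 in RNA-seq and 0.18 in footprints. The lowest values were -0.08 in RNA-seq and -0.003 in footprints, the latter between a scramble and a Gfp lysate. Between a Denr shRNA and scramble, the footprint pairs ranged from 0.12 to 0.32. The means for different numbers, -0.16 and -0.09, add no evidence, since deviations within a shRNA group cancel out. On average 5 of 11 lysates in RNA-seq and 9 of 11 in footprints correlated best with their own number, a hint from the data and not the design. With a replicate block the count was 17 in RNA-seq (9.54% of all genes), 21 in footprints (18.4%) and 13 in relative 5′ UTR translation (46.7%), 4 and 8 between the Denr shRNAs (9.18% and 17.2%), and 4 and 22 between the controls (1.49% and 13.7%; RNA-seq, footprints), and TE stayed at 0. With Denr shRNA1 alone the count was 0 in RNA-seq, 11 in footprints and 0 in 5′ UTR translation, and with Denr shRNA2 alone the last was 0. With scramble alone it was 20 in RNA-seq and 1 in 5′ UTR translation. With Gfp alone it was 0 in RNA-seq (median 0.14), 3 in footprints (median 0.13) and 0 in 5′ UTR translation. In 5′ UTR translation it was 0 without the 2 lysates that stood apart, 0 with a filter of 1 RPKM on the 5′ UTR, 0 for footprints over 5′ UTR RNA, and 15 (median 0.60) for 5′ UTR footprints without division by the CDS. Between the Denr shRNAs in RNA-seq it was 1 with a filter on mean RPKM and 1 after centring. The cause of these shifts was not tested, beyond the fewer samples of some settings.

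Values near 0 changed sign. For knockdown against control, Fasn in RNA-seq was -0.0070 after centring, -0.081 with Denr shRNA2 alone, -0.0393 with Gfp alone and -0.0386 without the 2 lysates (-0.019 to 0.080 leaving out 1 lysate), and Srebf1 in footprints was -0.0077 with Denr shRNA1 alone and -0.025 with Gfp alone (-0.0197 to 0.048). Without the 2 lysates, TE was -0.0074 for Hmgcs1 (-0.033 to 0.085 leaving out 1) and 0.0106 for Srebf1. Between the Denr shRNAs, Srebf2 in RNA-seq was -0.0012 after centring, and leaving out 1 lysate gave RNA-seq ranges of -0.058 to 0.19 for Hmgcs1, -0.12 to 0.0399 for Srebf1, -0.048 to 0.10 for Srebf2 and -0.0196 to 0.052 for Scd1, -0.035 to 0.12 for Hmgcs1 footprints, and TE ranges of -0.13 to 0.11 for Hmgcs1, -0.0069 to 0.18 for Srebf1, -0.12 to 0.0027 for Srebf2 and -0.027 to 0.10 for Scd1. Between the controls, the replicate block gave -0.012 for Srebf1 in RNA-seq and TE of 0.0115 for Hmgcs1 and 0.0202 for Scd1. Leaving out 1 lysate there gave -0.061 to 0.0897 for Srebf1 in RNA-seq and TE ranges of -0.24 to 0.23 for Hmgcs1, -0.01001 to 0.12 for Srebf1, -0.17 to 0.16 for Insig1, -0.076 to 0.0199 for Fasn and -0.079 to 0.049 for Scd1.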
